A study of Mus musculus with 2 samples.

Results

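Melanoma cells that carried transcripts of class II major histocompatibility complex (MHC) genes were picked out of a pool of mouse tumors and described against other tumor cells of the same tumors. A cell belonged to this population when its raw unique molecular identifier (UMI, 1 counted transcript molecule) counts for Cd74, H2-Aa, H2-Ab1, H2-Eb1, H2-DMa and H2-DMb1 summed to at least 10. It also needed at least 5000 gene UMIs, a mitochondrial share of at most 15%, a second highest hashtag count at least 3 times the third, and fewer than 5 UMIs in all of the macrophage genes C1qa, C1qb, C1qc, Csf1r and Adgre1. The matrix held 20917 barcodes, of which 1509 passed every limit other than the class II minimum, and 189 of these (12.5%) were class II positive. The cells were thus chosen by their class II UMIs, and class II levels are given below as a description only, with no test. Every other difference between cells chosen this way and the rest is a description of the same cells.

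The tumors were NRAS-mutated mouse melanomas, abbreviated NMM by the submitters, grown in Rag-/- mice, a strain without T and B cells of its own. The labels list 18 tumors, 6 in each of 3 conditions. They are named Mix PBS, Mix + T and Ag-GAS + T, where T marks tumors exposed to T cells and PBS the control. Cells of each tumor were stained with hashtag antibodies, combined in equal numbers, and sorted for CFP, which the labels equate with bystander tumor cells, so tumor cells without CFP are not described here. Everything was loaded as 1 pool, and no label ties a hashtag to a condition. The cells fell into 18 combinations of 2 hashtags, which are taken here as 18 tumors of unstated condition, and no comparison between conditions was made. The cells were selected on their own transcripts and the tumors are inferred from unlabelled tag pairs, so differences were taken within each tumor and given as values, no test over tumors was made, and intervals cover counting error only.

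Class II MHC molecules present peptides from endosomes to CD4+ T cells and are made mainly by dendritic cells, macrophages and B cells. The alpha and beta chains (H2-Aa, H2-Ab1 and H2-Eb1 are the genes counted here) assemble with the invariant chain Cd74, which blocks the groove until endosomal proteases cut it away. The H2-DM heterodimer, made of H2-DMa and a DMb chain, then exchanges the remaining fragment for a peptide. Transcription of the whole set depends on the coactivator Ciita, which interferon-gamma induces in many cell types and which binds no DNA itself but joins RFX, CREB and NF-Y factors on the X and Y boxes of class II promoters. Melanoma cells are known for being able to turn this program on.

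The boxes on which Ciita works are shown for the class II genes whose promoters were at hand, since Ciita was among the genes that separated the populations. The RefSeq promoter table (build GRCm38.p6, from 250 bases before to 50 after each start) held H2-Aa, H2-Eb1, H2-DMb1 and 2 starts of H2-DMa. The lines below give 110 bases from position -130 to -21 of each start, 5′ to 3′ on the gene's strand, and capitals mark GNAACT, letters of the X box, and ATTGG, the Y box. H2-Aa lies on the minus strand (chr17:34287844-34287953), and H2-Eb1 (chr17:34305737-34305846) and H2-DMb1 (chr17:34153061-34153170) lie on the plus strand.
H2-Aa: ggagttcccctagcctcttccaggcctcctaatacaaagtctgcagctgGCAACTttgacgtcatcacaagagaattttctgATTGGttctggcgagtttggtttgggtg
H2-Eb1: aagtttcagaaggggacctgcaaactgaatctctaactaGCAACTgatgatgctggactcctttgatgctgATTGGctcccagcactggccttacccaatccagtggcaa
H2-DMb1: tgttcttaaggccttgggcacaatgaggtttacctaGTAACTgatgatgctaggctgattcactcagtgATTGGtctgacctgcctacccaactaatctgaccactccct
The first motif started at -81, -91 and -94, and the second followed 33, 32 and 33 bases on in H2-Aa, H2-Eb1 and H2-DMb1. The search letters were chosen after these sequences had been viewed. GNAACT followed by ATTGG 28 to 38 bases on, on either strand but the same strand for both, with no overlap possible, was found in 168 of 32851 promoters of the same length (0.511%). GNAACT alone was in 42.8% of them and ATTGG alone in 37.4%. Neither H2-DMa window held the pair of letters.

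Class II positive cells came from 6 of the 18 tag pairs, numbered here as tumors 1 to 6. The pairs were 1+9, 2+8, 3+9, 6+7, 7+10 and 8+10 in that order. They made up 20.2% of the 109 cells of tumor 1, 18.6% of 258 in tumor 2, 23.6% of 140 in tumor 3, 24.2% of 161 in tumor 4, 20.4% of 142 in tumor 5 and 14.8% of 122 in tumor 6. The exact binomial 95% intervals of the lowest share (8.98% to 22.3%) and the highest (17.8% to 31.6%) overlapped. The shares were not tested against each other. Over the 6 tumors the share was 20.3% (17.7% to 23%). The other 12 tag pairs held 577 cells and no class II positive cell, which allows a share of up to 0.520%, and their highest cell had 4 class II UMIs. Median depths of the groups of tag pairs were close, with 45547 UMIs per cell in the 6 tumors and 43143 in the other 12 pairs.

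**Figure D1:**
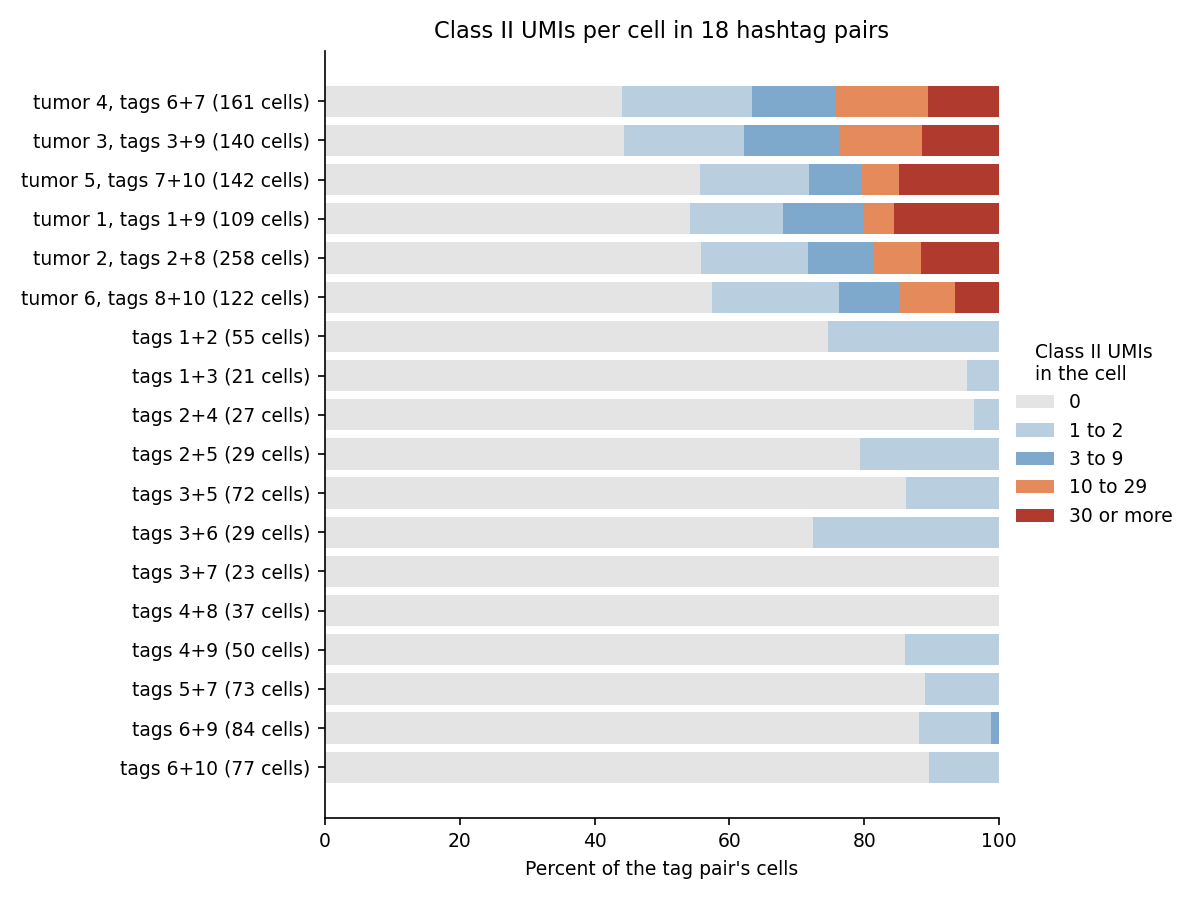
Percent of each tag pair's cells (x axis) with 0, 1 to 2, 3 to 9, 10 to 29 or 30 or more class II UMIs, for all 18 tag pairs with their cell numbers. The orange and red parts are the class II positive cells, which appear in 6 pairs at 14.8% to 24.2% and in none of the other 12.

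Within the 6 tumors class II formed a long tail rather than a separate block of cells. Of their 932 cells, 485 had 0 class II UMIs, 158 had 1 to 2, 100 had 3 to 9, 80 had 10 to 29 and 109 had 30 or more. Among class II positive cells the sum ran from 10 to 302 UMIs with a median of 37, and 27 cells had 100 or more. Just inside the limit 23 cells had 10 to 12 UMIs, and just outside it 25 cells had 7 to 9. Class II made up a median of 0.104% of a positive cell's UMIs and at most 0.951%. The 189 cells held 92.8% of all class II UMIs of the 1509 cells.

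The cells left out beside them included barcodes with macrophage transcripts. The macrophage limit removed 5 barcodes, all with 18 to 493 class II UMIs, 8 to 433 macrophage UMIs and a UMI of Ptprc (CD45, carried by all leukocytes). A further 143 barcodes failed the hashtag ratio, 10 of them with at least 10 class II UMIs. RNA outside cells, measured in 18473 barcodes under 800 UMIs, held class II at 107 CPM (UMIs per 1000000 gene UMIs; exact Poisson interval 100.9 to 113.3). A barcode filled only with such RNA would hold 3.75 class II UMIs at the positive cells' median depth. None of those barcodes held more than 3, but their low depth limits that count, so it is no check on deeper barcodes.

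Markers of other cell types were checked next. Ptprc was at 0 UMIs in all 189 cells, and 186 of them had 0 UMIs of the 5 macrophage genes while 3 had 1. The rule had removed cells with 5 or more UMIs of these 5 genes, so their low counts are no separate check. They are also part of the 12 macrophage and monocyte genes. Outside them, Ly6c2 was at 1.92 CPM (0.478 in cells with 0 class II UMIs), Cd68 at 1.37 (1.28) and Lyz2 at 0.686 (0.12). Aif1 was at 0.137 CPM (0.0797), Mrc1 at 0 (0.319), Ccr2 at 0 (0.0399) and Ms4a7 at 0 (0). Of 12 macrophage and monocyte genes 5 were at 0, of 11 dendritic cell genes 7, of 6 B cell genes 4, of 10 T cell genes 7, of 7 NK cell genes 5, of 6 neutrophil genes 5 and of 8 endothelial genes 4. Beside the levels in cells with 0 class II UMIs, the summed lists were at 4.53 against 2.67 CPM for macrophage and monocyte genes, 77.5 against 74.0 CPM for dendritic cell genes, 88.5 against 75 CPM for T cell genes, 0.960 against 1.83 CPM for B cell genes, 2.74 against 5.74 CPM for NK cell genes, 3.57 against 2.31 CPM for neutrophil genes and 28.7 against 53.6 CPM for endothelial genes. In the higher of these sums 1 gene made most of the total. Trbc2, a T cell receptor constant gene, gave 639 of the 645 T cell UMIs, at 87.7 CPM against 73.3 CPM in the cells with 0 class II UMIs and 91.1 CPM outside cells. In thinned cells of tumor 5 the T cell list was at 159.6 against 54.3 CPM, and in 4 of the other 5 tumors it was lower in the positive cells. Fscn1, an actin bundler, gave 549 of the 565 dendritic cell UMIs, at 75.3 against 72.1 CPM. In that list Ccr7 was also higher, at 1.92 against 0.279 CPM, with a UMI in 9 positive cells. Batf3 (0.137 against 0.877 CPM) and Flt3 (0 against 0.638 CPM) were lower. The lower NK cell sum came mainly from Eomes, at 0.823 against 5.10 CPM. Klrk1 of that list was higher, at 1.92 against 0.598 CPM, with a UMI in 12 positive cells. Pan-leukocyte genes summed to 33.1 against 38.5 CPM, and Cd53 gave 201 of the 241 UMIs in positive cells. The other 7 genes summed to 40 UMIs in 22 of the positive cells, at 5.49 against 0.877 CPM, with 8.59 CPM outside cells, and 5 of the 7 were higher in positive cells, led by Cd52 at 2.33 against 0.0399 CPM. The part of such transcripts in the results was not tested.

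The label of melanoma rested on few lineage genes. Tyr, Tyrp1, Dct, Mlana and Sox10, the pigment genes and their regulator, were at 0 UMIs, whereas Pax3, a neural crest factor, reached 39.7 CPM (27.6 CPM in cells with 0 class II UMIs) and Slc24a5, a melanosome exchanger, 37.2 CPM (45). Outside cells Pax3 was at 13.8 CPM and Slc24a5 at 43.6 CPM. Of these 2 genes only Pax3 therefore lay above that level in positive cells. Fibroblast genes were detected in both populations, 8 of 8 in the positive cells, and summed to 1638 against 1168 CPM. Col3a1, a fibrillar collagen, carried most of that sum at 1258 against 555 CPM, while 3 of the 8 went the other way. These were Pdpn, a mucin-type glycoprotein, at 243 against 453 CPM, and the type I collagen chains Col1a1, at 18.9 against 35.3 CPM, and Col1a2, at 2.33 against 40 CPM. The marker levels of both populations are sums over all their cells at full depth, not differences within tumors. Within tumors after thinning, Col1a1 was higher on average, by 0.60 in log2 of CPM plus 5, at medians of 19.2 against 7.14 CPM. Its difference ran from -1.25 in tumor 2, whose comparison cells were at 83.2 CPM, to 1.63. The part of these markers in the results below was not tested.

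Cd74 was the class II transcript seen most often. It was found in all 189 cells and gave 55.1% of the class II UMIs, followed by H2-Eb1 with 14.5%, H2-Ab1 with 12.7%, H2-Aa with 9.07%, H2-DMa with 4.99% and H2-DMb1 with 3.70%. These are shares of 3′ molecules and need no length correction, though capture can differ between genes. H2-Ab1 had a UMI in 164 cells, H2-Eb1 in 162, H2-Aa in 150, H2-DMa in 141 and H2-DMb1 in 120. All 6 transcripts were found together in 78 cells and 5 of them in 51 (the rule, by summing them, favours such cells). On GRCm38 the structural genes cluster on chromosome 17, with H2-DMa at chr17:34119541-34139101, H2-DMb1 at chr17:34153072-34160230, H2-Ab1 at chr17:34257689-34269419, H2-Aa at chr17:34282744-34287823 and H2-Eb1 at chr17:34305867-34316674.

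Other genes of the same cluster were nearly silent in these cells. H2-DMb2, the second DMb gene, had 4 UMIs in all, H2-Eb2 had 1, and H2-Oa and H2-Ob, the chains of the DM inhibitor H2-O that B cells make, had 0. A count of 0 allows up to 3 UMIs over the 189 cells.

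To compare levels, cells were thinned to 20000 UMIs, which left out 17 positive cells and 54 of the 485 cells with 0 class II UMIs in the same tumors as too shallow. Summed class II was 2121, 1598, 2042, 1253, 1871 and 822 CPM in tumors 1 to 6. Tumor 6, with the lowest sum, also had the lowest level of each of the 6 genes. Cd74 ran from 475 to 1142 CPM with a median of 947, H2-Eb1 from 94.4 to 382 with a median of 255, and H2-DMb1 from 13.9 to 83.3 with a median of 65.2. Across the 172 thinned cells, after the tumor means were subtracted, the 6 genes varied together. Pearson's r was highest between H2-Eb1 and Cd74 (0.70) and lowest between H2-DMb1 and H2-Eb1 (0.37). These genes share the rule that chose the cells, so their r values are a description.

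**Figure D2:**
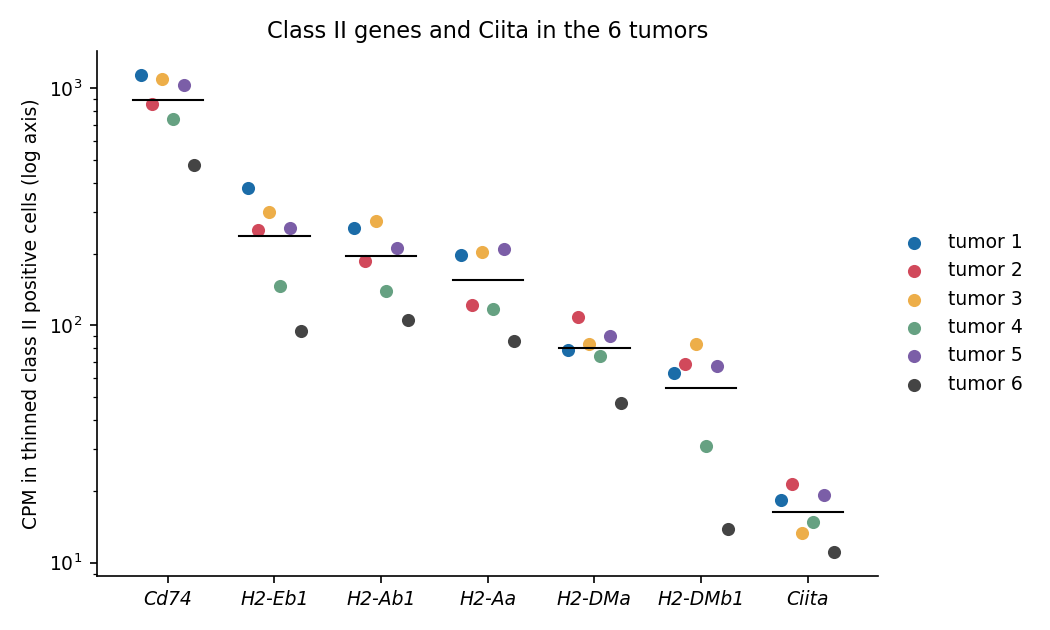
CPM (log axis) of the 6 class II genes and of Ciita in thinned class II positive cells, 1 point per tumor, with the mean of the 6 tumors as a line. Tumor 6 is lowest for every gene, Cd74 at 475 CPM and Ciita at 11.1 CPM included.

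Ciita, which the rule did not use, was the class II regulator that set the cells apart. At full depth it had a UMI in 61 of the 189 positive cells (32.3%), in 20 of the 485 cells with 0 class II UMIs (4.12%) and in 0 of the 577 cells of the other tag pairs. After thinning the shares were 22.7%, 0.557% and 0. Its level in positive cells ran from 11.1 to 21.4 CPM over the 6 tumors with a median of 16.6, and in cells with 0 class II UMIs from 0 to 2.88 CPM with a median of 0.586. The lowest tumor of the positive cells therefore stood above the highest of the comparison cells. These levels rest on few UMIs, with 125 in all 189 positive cells at full depth and at most 5 in a cell. No counting intervals are given for single tumors, so the separation is a description of these values. The mean log2 difference was 1.88 after thinning and 1.69 when each positive cell was set beside the comparison cell of its tumor nearest in depth. Differences of single genes are in log2 of CPM plus 5, and those of summed lists in log2 of CPM. The Ciita gene lies at chr16:10480059-10528418.

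The DNA-binding partners of Ciita that could be compared were not higher by the same measure. The list holds 8 class II regulators, and those under 10 CPM in both populations were not compared. Of the 6 class II regulators that could be compared, only Ciita met the size rule after thinning, which asks for a 1.5-fold mean difference over the 6 tumors, the same direction in each, and at least 10 CPM. The NF-Y subunits Nfya, Nfyb and Nfyc differed by -0.59, -0.58 and 0.04, the RFX subunit Rfxap by -0.40 and Creb1 by 0.10, on the log2 scale. Matched in depth, Nfya met the rule as lower, at -0.68. Over all 8016 genes compared, 334 (4.17%) met the rule as higher and 440 (5.49%) as lower in positive cells, and the median difference of all genes was -0.06.

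Depth differed between the populations. Positive cells had a median of 35029 UMIs and comparison cells 50295, at mitochondrial shares of 2.38% and 2.52%. When the 189 positive cells were instead paired with 189 comparison cells of the same tumors nearest in depth (median 35642 UMIs), 172 genes (2.16%) were higher and 95 (1.20%) lower, of which 151 and 71 were also called after thinning. Values from this depth-matched comparison are given beside those of the lists and of some single genes. Other single-gene values are from thinned cells only.

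Class I antigen presentation was higher together with class II. The list holds the class I heavy chains, B2m, the peptide transporter, the immunoproteasome and the loading complex. Its sum was higher in positive cells of all 6 tumors, from 19078 to 23188 CPM against 12855 to 15881 CPM, with a mean log2 difference of 0.56 (0.45 to 0.70 over the tumors). Of its 21 genes 8 met the rule as higher and none as lower, with a median difference of 0.49. Matched in depth the mean difference was 0.35 (0.16 to 0.51) and 4 of 21 genes met the rule, which were H2-Q4, H2-Q6, H2-Q7 and Tapbpl, so that B2m, H2-K1, H2-D1 and H2-T23 no longer did.

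B2m, the light chain shared by class I molecules, was at 4407 to 5196 CPM in positive cells (median 4874) and 2989 to 3465 CPM in comparison cells (median 3201). H2-K1, a classical heavy chain, was at 3585 to 4260 CPM (median 4090) against 2028 to 2579 CPM (median 2222). H2-D1, the other classical heavy chain, was at 3465 to 3990 CPM (median 3860) against 1967 to 2477 CPM (median 2288). For all 3 genes the ranges over the tumors were separate. The share of all genes compared with separate ranges is not given here, so separate ranges describe single genes only. The nonclassical genes H2-Q7 and H2-Q6, which encode Qa-2 molecules, differed most within the list. H2-Q7 ran from 133 to 234 CPM (median 183) against 27.3 to 93.6 CPM (median 41.8), and H2-Q6 from 25.0 to 65.8 CPM against 5.77 to 16.4 CPM. Q-region genes are near-identical copies, so how their reads were divided between H2-Q6 and H2-Q7 is uncertain. Psmb8, an immunoproteasome subunit, differed by 0.39 and Tap1, a transporter chain, by 0.54, both under the 1.5-fold limit.

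Interferon-gamma response genes were higher in the positive cells of every tumor, by unequal amounts. The summed list was at 8116, 8311, 6718, 5893, 8863 and 7572 CPM in positive cells of tumors 1 to 6, and at 4819, 4304, 6165, 3940, 4839 and 4717 CPM in comparison cells. The log2 difference was 0.58 to 0.95 in 5 tumors and 0.12 in tumor 3, whose counting intervals (6513 to 6929 against 6019 to 6313 CPM) were still separate. Tumor 3 had the highest level in comparison cells. The mean was 0.66 after thinning, 0.77 without tumor 3, and 0.48 matched in depth. Of 24 genes 10 met the rule as higher and none as lower, and 5 of 24 did so matched in depth.

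Guanylate-binding proteins, GTPases that act on intracellular pathogens, led this list. Gbp6 was at 314 to 483 CPM (median 371) in positive cells and at 111 to 172 CPM (median 147) in comparison cells. Gbp8 ran from 8.33 to 53.8 CPM against 0 to 7.03 CPM, and Gbp10, which was outside the list, from 47.3 to 80.8 CPM against 10.2 to 19.1 CPM. Gbp3 differed by -0.01, so the family did not move as a block, and reads shared between these similar genes make single members uncertain. Irf1, an interferon-induced transcription factor that acts on the Ciita gene, differed by 0.66 on average but by -0.30 to 1.05 over the tumors, and did not meet the rule. Iigp1 and Gbp2, the most abundant genes of the list that met it after thinning, differed by 0.63 each and did not meet it matched in depth.

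Type I interferon genes differed little. Only Ifi27l2a of 27 genes met the rule, at 342 to 825 CPM against 175 to 325 CPM, and the list differed by 0.15 after thinning and -0.01 matched in depth, where 0 of 27 met it. Isg15, a ubiquitin-like modifier, was at a median of 2541 CPM in positive cells and 2567 CPM in comparison cells, and Bst2, which tethers budding virus, at 5122 and 4822 CPM. The lists for interferon-gamma and type I interferon were not tested against each other.

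Chemokines varied from tumor to tumor and none of 8 met the rule after thinning. The list differed by 0.17 on average, from -1.22 in tumor 3 to 0.79 in tumor 6. Matched in depth it differed by 0.24, from -0.96 to 1.94, and 1 of 8 met the rule, Cx3cl1 at 1.08. Cxcl10, a ligand of Cxcr3 on T cells, was at 817 to 2926 CPM in positive cells and 1464 to 3024 CPM in comparison cells, and Ccl2, which draws monocytes, at 583 to 2253 CPM against 1021 to 1734 CPM. The ranges overlapped for both. Cxcl9, another Cxcr3 ligand, differed by 1.16 on average but by -0.20 in its lowest tumor.

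On the receiving side of interferon signalling, 2 of 15 genes met the rule. Ifngr1, the ligand-binding chain of the interferon-gamma receptor, was at 33.3 to 57.9 CPM in positive cells (median 42.5) and 15.3 to 28.1 CPM in comparison cells (median 18.5), a mean log2 difference of 1.02. Jak2, the kinase bound to the receptor's other chain, was at a median of 42.5 CPM against 19.9 CPM, with separate ranges. Ifngr2 itself differed by 0.44 and Socs3, a feedback inhibitor, by 0.22. The list as a whole differed by 0.25 after thinning and 0.17 matched in depth.

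The endosomal machinery that loads class II was not raised as a summed list, but its genes other than Ctsl summed higher. The whole list summed to 5111 CPM in positive cells and 5740 CPM in comparison cells. It differed by -0.17 after thinning and -0.29 matched in depth. Ctsl made up most of both sums, at means of 2565 against 4037 CPM, and fell by more than the list did. The same held matched in depth, at 2652 against 4139 CPM for Ctsl and 5039 against 6211 CPM for the list. The median difference of the 10 genes compared was 0.24 after thinning, with 2 called higher and 1 lower. Single genes went opposite ways. Lgmn, a protease that cuts the invariant chain and antigens, was at 94.4 to 142 CPM (median 125) against 40.3 to 54.8 CPM (median 44.1), and Cst3, a cathepsin inhibitor, at 889 to 1319 CPM against 531 to 661 CPM. Ctsl, a cathepsin that trims the invariant chain in thymic epithelium, was lower, at 2146 to 2867 CPM (median 2658) against 3466 to 4539 CPM (median 4145). Lgmn, Cst3 and Ctsl were the genes of the list that met the rule, and their ranges over the tumors were separate. The share of all genes with separate ranges is not given, so this describes single genes only. Matched in depth, Lgmn (0.91) and Ctsl (-0.63) still met the rule while Cst3 did not. Ifi30, a thiol reductase of the endosome, differed by -0.29, and Ctsb and Ctsd, abundant lysosomal proteases, by 0.27 and 0.26.

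Costimulatory and inhibitory ligands were not higher as a summed list, and only 6 of the 18 reached the level to be compared singly. None of these 6 genes met the rule, and the list differed by -0.02 after thinning and -0.15 matched in depth. Nectin2 differed by 0.63 on average but by -0.22 in its lowest tumor. Cd274 (PD-L1), the ligand of the inhibitory receptor PD-1, was at 32.4 to 57.9 CPM in positive cells and 21.1 to 52.9 CPM in comparison cells, overlapping ranges. Cd47, the signal that inhibits phagocytosis, differed by -0.04. Cd40, Cd80 and Cd86, the costimulatory molecules of professional antigen-presenting cells, were below 10 CPM in both populations and were not compared.

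**Figure D3:**
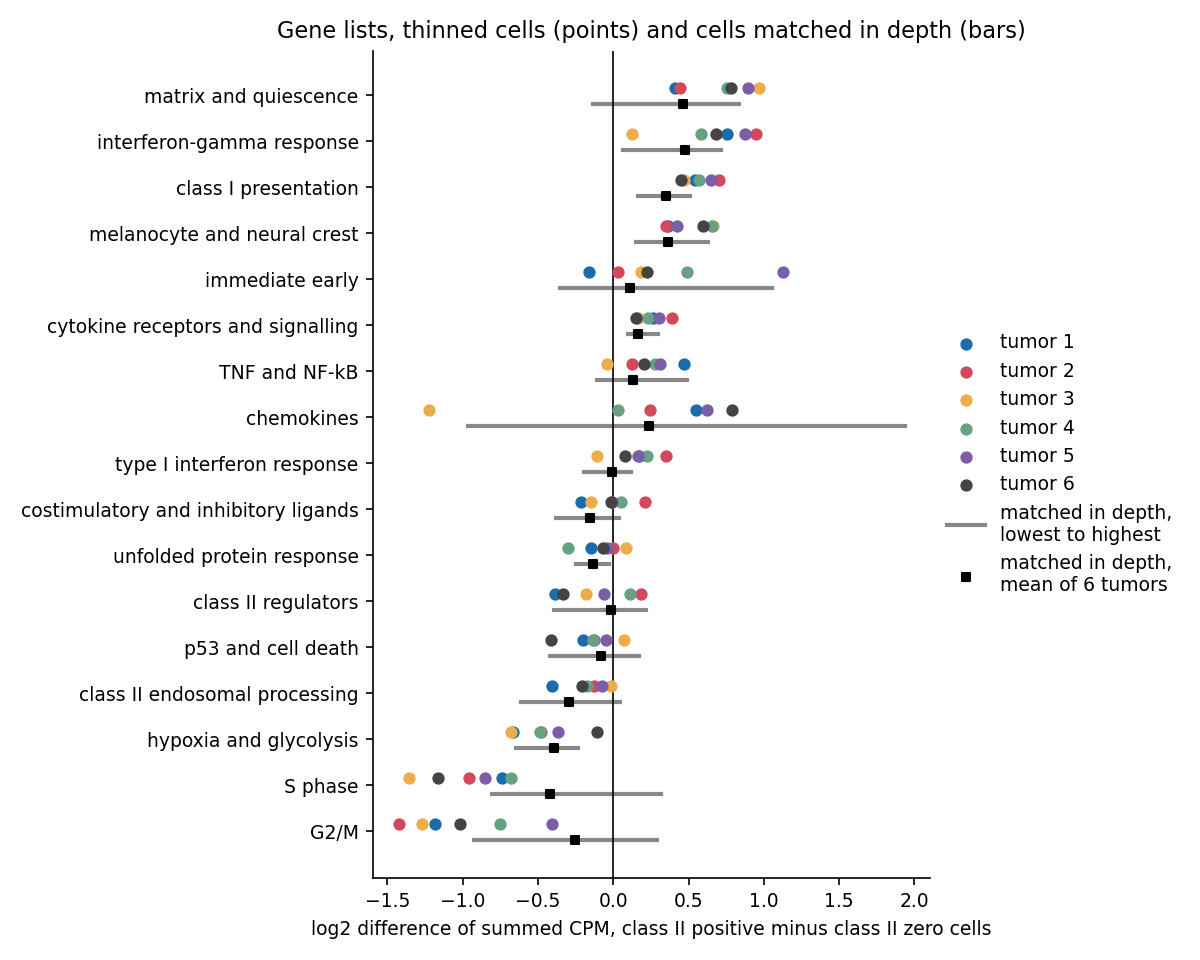
Log2 difference of summed CPM between class II positive and class II zero cells for 17 gene lists, as points for the 6 tumors after thinning to 20000 UMIs. Grey bars and black squares give the range and mean over the tumors when cells were paired by depth, which moved G2/M from -1.01 to -0.25 and the interferon-gamma list from 0.66 to 0.48.

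Cell cycle genes were lower in positive cells after thinning, and most of that difference was absent at equal depth. G2/M genes summed to 1037 to 2008 CPM in positive cells and 2606 to 3378 CPM in comparison cells, a mean log2 difference of -1.01 (-1.43 to -0.41), with 19 of 25 genes lower. S phase genes summed to 570 to 804 CPM against 1202 to 1457 CPM, a mean difference of -0.96, with 14 of 22 genes lower. Matched in depth the G2/M list differed by -0.25 and was higher in 2 of 6 tumors with 0 of 25 genes called, and the S phase list by -0.42 with 2 of 21 genes called. Depth moved with these lists, and its part in them beyond these values was not tested.

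Rrm2, a subunit of ribonucleotide reductase, shows the pattern. It was at 5.56 to 45 CPM (median 26.6) in positive cells and 82.8 to 91.4 CPM (median 85.1) in comparison cells, a mean log2 difference of -1.66 that was -0.76 matched in depth. Top2a, the topoisomerase of chromosome condensation, was at a median of 131 CPM against 235 CPM, and Hmgb2, a chromatin protein of cycling cells, at 217 to 329 CPM against 496 to 635 CPM. Cdkn1a (p21), an inhibitor of the cell cycle, was lower as well. It was at 13.5 to 51.7 CPM (median 22.4) against 53.6 to 111 CPM (median 86.2), with a mean difference of -1.54 after thinning, -0.91 matched in depth, and -0.05 in tumor 3.

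Matrix and quiescence genes were higher than in cells with 0 class II UMIs. They were higher still in cells with 3 to 9 class II UMIs, at a mean of 5631 CPM. The list summed to 3989 to 5294 CPM in positive cells and 2444 to 3329 CPM in comparison cells, with a mean log2 difference of 0.71 and 8 of 17 genes higher. Matched in depth it was 0.46, and lower in positive cells of 1 of 6 tumors, with 5 of 16 genes higher. Col3a1 was at 1118 to 1412 CPM (median 1345) against 572 to 689 CPM (median 633), with separate ranges. Sparc, a matrix glycoprotein and the most abundant of the list, differed by 0.36, and Fn1, fibronectin, by 0.41, neither meeting the rule. Timp3, an inhibitor of metalloproteinases, was at 11.1 to 46.7 CPM against 0.806 to 5.86 CPM, and Itga1, a collagen receptor chain, at 25.0 to 129 CPM against 7.27 to 41.8 CPM. The values of the fibroblast markers that moved with this list are given above.

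Of the remaining lists, melanocyte and neural crest genes differed by 0.51 (0.36 matched in depth), and their sums were 690 against 485 CPM. Tcf4, a helix-loop-helix factor at 449 against 238 CPM, made up that gap. Hypoxia and glycolysis genes were lower in all 6 tumors, by -0.47 after thinning and -0.39 matched in depth, with 2 of 17 genes past the rule after thinning and 1, Pgk1, matched in depth. Eno1, a glycolytic enolase, was at 313 to 483 CPM against 598 to 681 CPM, and Mif, a cytokine counted in that list, at 667 to 983 CPM against 1198 to 1371 CPM. NF-kB targets differed by 0.22 (0.13 matched in depth) with 1 of 12 genes called in both comparisons, which was Vcam1. Immediate early genes differed by 0.32, with Fosb and Egr1 called of 14, and were lower in tumor 1. Matched in depth they differed by 0.11 but were higher in only 2 of 6 tumors, and Fosb alone was called. The p53 and cell death list differed by -0.14 (-0.08 matched in depth) with 1 gene higher and 2 lower of 13, and 0 of 11 when matched. The unfolded protein response differed by -0.08 (-0.13 matched in depth) with 0 of 11 called in both.

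Among the 20 genes with the largest positive differences outside the class II genes themselves were Slpi, Prg4, Mmp13, AW112010, Tmem176a, Tmem176b, H2-Q7, Fcgrt, Ciita, Trf, H2-Q6, Gbp10, Edil3, Timp3, Itga1, Gbp8, Plpp3, Lcn2 and Ogn. Of the 20, 17 met the rule matched in depth too, and Prg4, Itga1 and Lcn2 did not. They are taken up by what their products do.

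Slpi, a secreted inhibitor of neutrophil proteases, was at 134 to 376 CPM (median 279) in positive cells and 11.5 to 137 CPM (median 40.2) in comparison cells. Its mean log2 difference of 2.49 was the largest, and the ranges touched only through the highest comparison tumor, tumor 4 at 137 CPM. Mmp13, a collagenase, was at 86.8 to 190 CPM (median 122) against 4.81 to 45.7 CPM (median 23.5), and its difference was 2.38 after thinning and 2.37 matched in depth. AW112010, a transcript known to be induced by interferon, was at 158 to 356 CPM (median 290) against 41.3 to 110 CPM (median 47.5). Its smallest difference, 0.69, was in tumor 3.

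Tmem176a and Tmem176b, neighbouring genes for membrane proteins known in dendritic cells, were higher together. Tmem176a was at 112 to 255 CPM (median 187) against 21.8 to 82.0 CPM (median 35.0), and Tmem176b at 176 to 334 CPM (median 237) against 34.5 to 83.6 CPM (median 63.9). Both had separate ranges, and their differences of 2.07 and 2.00 were 1.93 and 1.76 matched in depth. The 2 genes overlap at chr6:48840919-48841496 by annotation, so reads there could be counted for either.

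Fcgrt, the heavy chain of the neonatal Fc receptor, which pairs with B2m and binds IgG and albumin, was at 44.4 to 85.0 CPM (median 70.0) against 8.87 to 19.3 CPM (median 14.7). Trf, the iron carrier transferrin, and Lcn2, a lipocalin that binds bacterial siderophores, were at medians of 133 against 23.4 CPM and 15.7 against 1.29 CPM. Edil3, an integrin ligand of the matrix, was at 61.5 to 94.7 CPM against 12.9 to 28.8 CPM with little spread between tumors, and Plpp3, a lipid phosphatase of the cell surface, at 105 to 188 CPM against 30.7 to 52.3 CPM. Prg4 (lubricin) and Ogn (osteoglycin), secreted proteoglycans, were at medians of 32.9 against 2.38 CPM and 24.3 against 5.62 CPM.

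The 10 genes with the largest negative differences were Fabp5, 4930579C12Rik, Gap43, Rrm2, Abcb1b, Idi1, Clec4d, Gatm, Slc16a3 and Cdkn1a, of which 5 met the rule matched in depth. Fabp5, a carrier of fatty acids, was at 2.38 to 36.8 CPM (median 27.8) in positive cells and 84.7 to 126 CPM (median 98.0) in comparison cells, a difference of -2.01 that was -1.39 matched in depth. Gap43, a growth cone protein of neurons and neural crest derivatives, was at 44.7 to 222 CPM (median 83.0) against 254 to 323 CPM (median 291), and tumor 6 with 222 CPM was the nearest to the comparison cells. Abcb1b, a drug efflux pump, had a median of 4.68 CPM against 22.4 CPM, and Clec4d, a C-type lectin, 0.962 CPM against 15.7 CPM. The enzymes Idi1 (isoprenoid synthesis) and Gatm (creatine synthesis) and the lactate carrier Slc16a3 were not called matched in depth. They differed there by -1.16, -0.64 and -1.10 in that order.

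**Figure D4:**
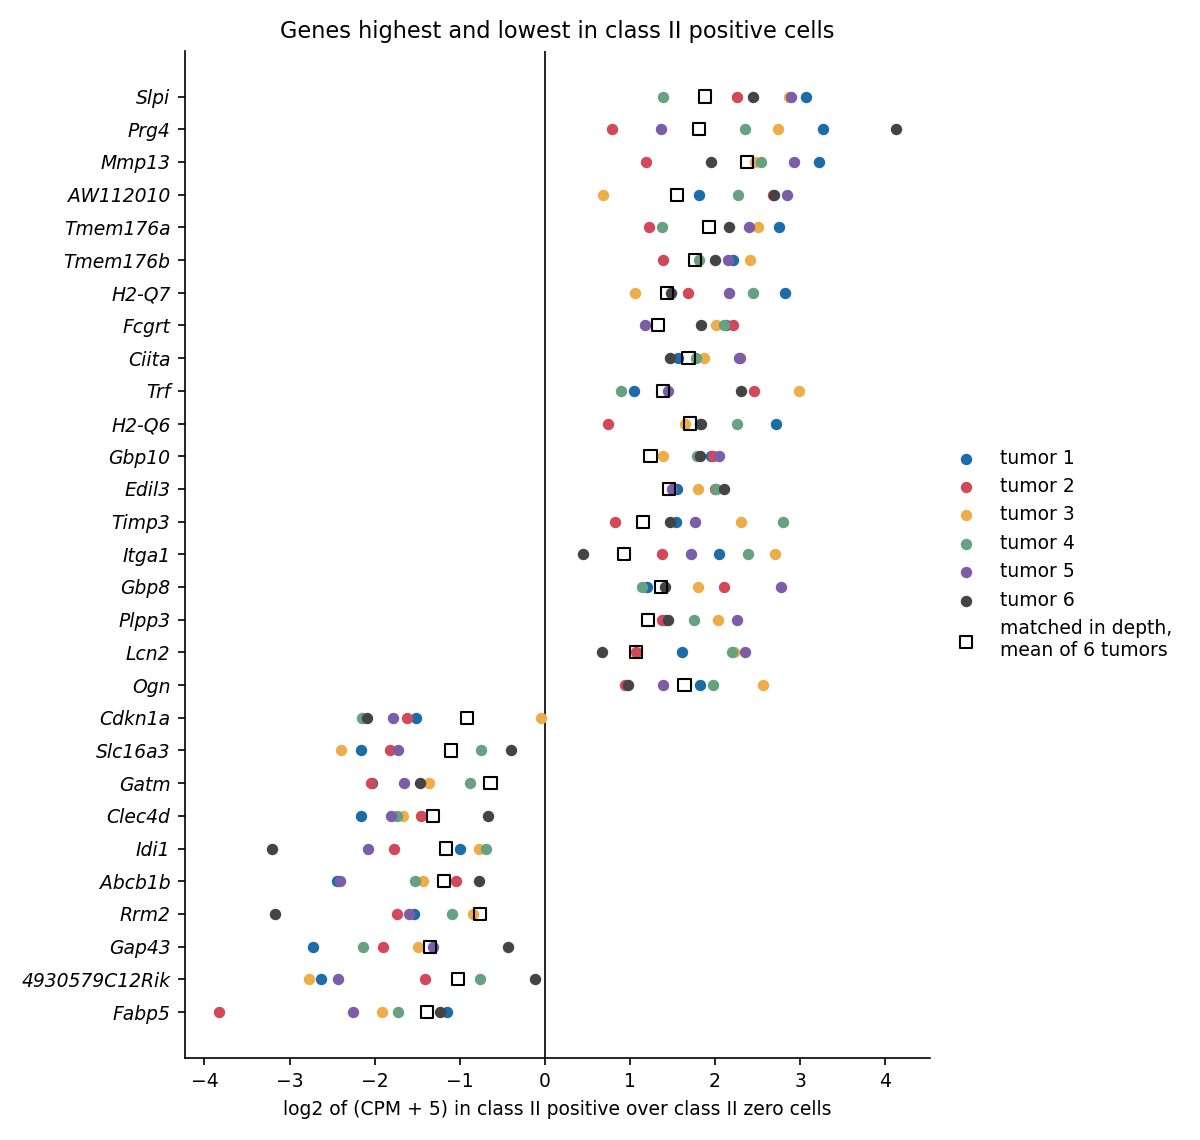
Log2 of CPM plus 5 in class II positive over class II zero cells for genes among the 20 with the largest positive and the 10 with the largest negative mean differences, 1 point per tumor after thinning, with open squares for the mean when cells were paired by depth. Slpi and Mmp13 lie at 2.49 and 2.38 after thinning and 1.88 and 2.37 in depth-matched cells, whereas Gatm moves from -1.57 to -0.64.

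A stricter set was read from the genes that met the size rule after thinning, matched in depth, with comparison cells matched in interferon-gamma list UMIs, and among cells at or under the median of 46 cell cycle UMIs. A gene of a list used for matching or for that limit was not asked to pass there. The matched comparison still left a difference of 0.24 in the interferon-gamma list. It called 199 genes higher (2.48%) and 274 lower (3.42%), and the low-cycling comparison 151 (1.93%) and 145 (1.85%). Leaving out the 5% of cells with most UMIs, which was not part of the set, called 316 (3.95%) and 389 (4.86%). In all, 67 of the 334 higher genes (20.1%) and 27 of the 440 lower genes (6.14%) met the rule each time.

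The 67 higher genes included Ciita, Slpi, Mmp13, Tmem176a, Tmem176b, Fcgrt, Trf, Edil3, Timp3, Plpp3, Gbp10, H2-Q6 and H2-Q7 of the 20 genes above, and Lgmn, Ifngr1, Tcf4 and Col3a1 of the lists. Of the lower genes they included Ctsl, Nasp and Mcm5 of the lists, with Fabp5, Abcb1b and 4930579C12Rik. Other members, chosen after their values were seen, were Mmp3, a stromelysin at 712 to 1633 CPM against 257 to 506 CPM, Tgfbi, a matrix adhesion protein at a median of 104 CPM against 31.5 CPM, and Timp1, an inhibitor of metalloproteinases that was lower at 201 to 297 CPM against 396 to 482 CPM. The interferon-gamma list gave 3, Gbp4, Gbp6 and Batf2, which were not asked to pass the comparison matched in that list. No G2/M, type I interferon or chemokine gene could be in this set, since none was called in 1 of its comparisons. There 0 of 25 G2/M and 0 of 27 type I interferon genes were called matched in depth, and 0 of 8 chemokines after thinning. Over all 8016 genes compared, 67 were in the set as higher and 27 as lower.

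Levels were also read in cells between the 2 populations, binned by class II UMIs. Ciita was at 0.810, 5.32, 4.52, 6.58 and 20.5 CPM in cells with 0, 1 to 2, 3 to 9, 10 to 29 and 30 or more class II UMIs, as means of the 6 tumors. The class I list was at 14402, 15975, 20118, 18687 and 22229 CPM and the interferon-gamma list at 4797, 5545, 6683, 6429 and 7980 CPM. Neither was steady, since both were lower at 10 to 29 UMIs than at 3 to 9. Slpi was at 55.2, 81.7, 87.0, 220 and 332 CPM, AW112010 at 56.9, 88.2, 137, 200.4 and 292 CPM, and Fabp5 at 102, 78.3, 32.8, 26.2 and 26.0 CPM. G2/M genes were at 2857, 2752, 1837, 2444 and 1003 CPM, with a range of 1431 to 5492 CPM over the tumors at 10 to 29 UMIs. The matrix and quiescence list was at 2813, 3005, 5631, 4252 and 4624 CPM. It was thus highest at 3 to 9 UMIs, outside the positive cells, where it ran from 3694 to 9240 CPM over the tumors. Bins with few cells per tumor, such as the 66 cells with 10 to 29 UMIs, have wide ranges.

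Cells of the 12 tag pairs without class II positive cells lay below even the class II zero cells for the interferon lists. Their interferon-gamma list was at 1432 CPM (983 to 2040 over the pairs) against 4797 CPM (3940 to 6165) in class II zero cells of the 6 tumors, and their class I list at 6854 CPM (6040 to 7419) against 14402 CPM. AW112010 was at 7.14 CPM and Ciita at 0 CPM in them. Slpi was at 50.1 CPM and Fabp5 at 92.4 CPM, near the class II zero cells. The matrix list, at 3967 CPM (2423 to 4845), lay above that of the class II zero cells (2813 CPM, 2444 to 3329) with overlapping ranges.

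**Figure D5:**
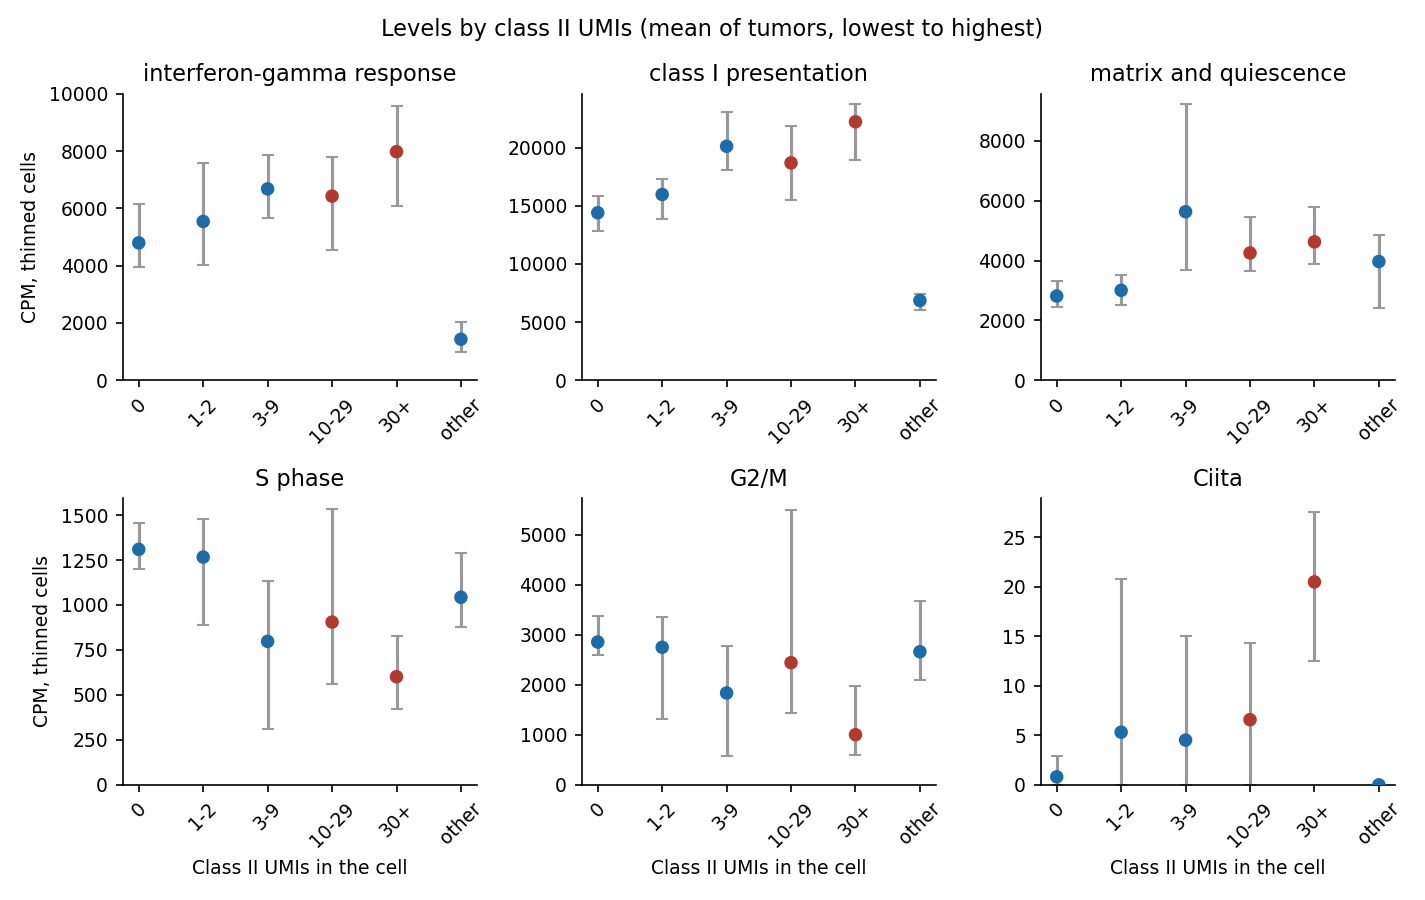
CPM in thinned cells (y axis) of 5 gene lists and Ciita by the number of class II UMIs in the cell (x axis), with the cells of the 12 other tag pairs at the right. Points are means and bars the lowest to the highest tumor, and class II positive cells are red. Ciita is at 20.5 CPM in cells with 30 or more class II UMIs and at 0 CPM in the other pairs.

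A high interferon-gamma response and class II went together in only some of the cells. When cells of each tumor were split into 4 groups of near equal size by their interferon-gamma list UMIs, 15.5%, 12%, 17.5% and 36.8% were class II positive from the lowest to the highest group. The highest group held 77 positive cells and 64 cells with 0 class II UMIs, and in it the share ran from 32.1% to 43.1% over the tumors. The lowest group still held 33 positive cells. Cell by cell, a median of 75.9% of positive cells of a tumor lay above the comparison cells' median for the interferon-gamma list (56.7% to 84.6%) and 85.3% for the class I list (77.8% to 97.6%), so the populations overlapped.

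Among the 172 thinned positive cells, the class I genes H2-K1 and H2-D1 had the highest r values with summed class II. Of the 3608 genes detected in 50% or more of them, the 10 with the highest Pearson r after subtracting the tumor mean were H2-K1 (0.47), H2-D1 (0.42), Itm2b (0.40), Lgmn (0.40), Psmb8 (0.39), Tmem176a (0.37), B2m (0.37), H2-T23 (0.35), Os9 (0.35) and Wasf2 (0.34). The class I list had an r of 0.46, positive within all 6 tumors, and the interferon-gamma list 0.27, also positive in 6. Ciita had an r of 0.29, positive in 5 of 6, and the G2/M list -0.36, negative in 6. The cells share 1 pool and a fixed total of UMIs, so these values describe the libraries.

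Hashtag counts offered a readout outside the transcriptome. The sum of a cell's 2 hashtags had a higher median in positive than in comparison cells of all 6 tumors, by a ratio of 1.28 to 1.95 with a median of 1.44. Tumor 3 had the lowest ratio, with 5022 against 3930 hashtag UMIs, and tumor 5 the highest, with 5083 against 2612. The ratio was 1.25 to 1.96 in cells matched in depth, although positive cells had fewer gene UMIs than unmatched comparison cells. What the hashtag antibodies bind is not stated in the labels, and the source of the higher counts was not tested.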

How the data were processed

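The authors deposited 1 raw matrix of UMI counts per gene and hashtag, not normalized. Per the file headers it came from Cell Ranger 6.1.2. The build GRCm38 and Cell Ranger 2.1.1 are named in the submitters' processing notes, and the 2 versions could not be reconciled. How barcodes were filtered is not stated there.

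Cells were chosen as the report states, and tag pairs were read from the 2 highest hashtags. Barcodes mixing tumors fail the hashtag ratio, doublets within a tumor are not seen, and no doublet caller was run. Cells were thinned to 20000 UMIs (seed 1), summed per tumor with at least 10 cells of each kind, and expressed as CPM. Log2 differences used a pseudocount of 5 CPM for genes and none for list sums, and tumors were weighted equally. Intervals (95%) are exact Poisson or Clopper-Pearson. For counts of 0, up to 3 are allowed.

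No test over tumors was made, because the cells were selected on the readout and the tag pairs have no stated condition. Genes were called by size: 1.5-fold, the same direction in 6 tumors, at least 10 CPM. Named genes are the 20 highest and 10 lowest, leaving out symbols starting Rpl, Rps, mt- or Gm (2 higher and 1 lower among those called). They exclude the 6 class II and 5 macrophage rule genes. Up to 4 abundant genes of each list were also to be named, and list genes named beyond these were picked after their values were seen. Some genes that these rules name are not reported here. The members, the 19 gene lists and 10 marker lists were chosen with earlier results of these data known, and 4 listed genes were not matched. Coordinates are GENCODE M21 on GRCm38, by gene ID. Alternatives changed the class II minimum, filters, depth matching, comparison cells, scaling, pseudocount, level and fold, and left out each tumor. The analysis was tested on simulated data and used Python 3.11.15, numpy 2.4.6, scipy 1.17.1 and pandas 2.3.3.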

Additional observations from a re-analysis of the deposited data

How the results depend on the processing

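The number of class II positive cells was 244 at a minimum of 5 UMIs and 140 at 20 UMIs. The interferon-gamma list's log2 difference of 0.66 was 0.62 at a minimum of 5 UMIs, 0.69 at 20 UMIs, 0.61 without thinning, 0.48 matched in depth, 0.62 against cells with 0 to 2 class II UMIs, 0.63 in tumors with 20 cells of each kind and 0.50 in low-cycling cells. The class I list's 0.56 was 0.59 at 20 UMIs, 0.60 without thinning, 0.35 matched in depth, 0.53 against cells with 0 to 2 class II UMIs, 0.60 in tumors with 20 cells, 0.58 as sums over all tag pairs, 0.58 with another scaling, 0.44 matched in interferon-gamma UMIs, 0.33 in low-cycling cells and 0.54 without the 5% of cells with most UMIs. The G2/M list's -1.01 was -0.92 at 5 UMIs, -1.19 at 20 UMIs, -0.83 without thinning, -0.25 matched in depth, -0.95 as sums and -0.80 matched in interferon-gamma UMIs. The last 3 kinds of comparison (interferon-gamma matched, low-cycling, without the deepest cells) were chosen after seeing the data.

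Leaving out each tumor in turn gave 0.60 to 0.77 for the interferon-gamma list (0.77 without tumor 3), 0.54 to 0.59 for the class I list, -1.13 to -0.93 for the G2/M list, 355 to 403 higher genes and 467 to 545 lower genes. All differences were taken within tumors, and the labels number no replicates that could serve as a further block.

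The 334 higher and 440 lower genes were 172 and 95 matched in depth, 175 and 185 with a pseudocount of 20 CPM, 164 and 183 at 50 CPM, 101 and 104 at a fold of 2, 199 and 274 matched in interferon-gamma UMIs, and 151 and 145 in low-cycling cells. The smaller counts at 50 CPM come with fewer genes tested, 3191 of 8016, and for depth and the other matched comparisons the cause was not tested.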
